A study of Homo sapiens
Mus musculus with 24 samples.

Results

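The 38 genes described here are murine genes of skeletal muscle fibres. They are a fixed list of names, all 38 were found among the 16667 genes of the murine count table, and the list was drawn up with earlier results of these tumors known. Of the 38, 14 belong to fast fibres, 6 to slow fibres and 18 to both. The libraries came from tumors grown by MDA-MB-231, a human triple negative breast cancer cell line, in female B6/Rag1KO mice, whose loss of Rag1 leaves them without mature B and T cells. Cells were placed under the skin over the upper back, at the base of the neck, when the mice were 14 weeks old, in a gel of Matrigel and Collagen I. Counts are therefore given in a human table, meant for the cancer cells, and a murine table, meant for everything the host contributed. How reads of like sequence in both genomes were assigned is not given.

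Obese mice on a high-fat diet (HFD) were randomized for 4 weeks to 4 groups. CTRL mice (4 libraries) had weekly saline, Chemo mice (5) had doxorubicin (2 mg/kg) and cyclophosphamide (100 mg/kg) once a week, MC mice (5) had a moringa seed concentrate as 0.6% of the diet, and MC + Chemo mice (6) had both. Lean mice (4) ate the lean diet, had no intervention and stood outside the randomization. Every group carried the same tumor cell line and the same Rag1 deletion. The question here is how much fast-fibre and slow-fibre muscle RNA each tumor library held, and whether that differed between the groups.

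Skeletal muscle fibres contract when calcium, released from the sarcoplasmic reticulum, binds troponin and frees actin to meet myosin. Fibres come in types named for their myosin heavy chain. The fast types 2B, 2X and 2A use Myh4, Myh1 and Myh2, and the slow type 1 uses Myh7. Fast and slow fibres also carry different light chains, troponins and calcium-handling proteins. In the mouse, most limb and trunk muscles are mainly fast, whereas a few postural muscles such as the soleus are rich in slow fibres. The upper back also holds the panniculus carnosus, a thin fast muscle sheet under the skin. Most of these genes are not usual products of a breast tumor, its fibroblasts or its vessels, although desmin is also made by pericytes.

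Libraries held 3664056 to 9892470 murine counts and 7796231 to 17621273 human counts. Counts of the human table were 60.1% to 74.0% of the sum in 23 libraries and 47.8% in MC 41. Libraries are named by group and mouse number. The following points touch the values below. MC + Chemo 5 carries the combination in its title but MC in its group field, and was kept in MC + Chemo by its title. MC 41, MC 42 and Lean 3 had an extra RNA column cleanup, and no CTRL, Chemo or MC + Chemo library did. Rag1 itself was listed at 0.880 to 23.1 scaled counts, which checks nothing, because a 3′ tag may lie outside the deleted part of the gene. In the human table CD44, a basal-like marker of this cell line, was at 3783 to 5652, and VIM (vimentin) was at 4402 to 71918. The oestrogen receptor gene ESR1, which triple negative cells lack, was at 2.59 to 88.3. ERBB2, a receptor gene that also enters triple negative status, was at 192 to 769, above the ESR1 range. These levels were not compared with those of another cell line. Tumors were sequenced in bulk, so more fibres and more RNA per fibre cannot be told apart.

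Muscle RNA was unevenly spread over the tumors, and a few libraries held nearly all of it. The 38 genes summed to 404 to 585 scaled counts in the 4 CTRL libraries, where a scaled count is a read count divided by the authors' size factor for that library. MC + Chemo 43 held 102497, MC 41 held 72807, MC + Chemo 5 held 69537 and MC 48 held 18922. Chemo 30 held 4795, MC + Chemo 47 held 4075 and Lean 54 held 1490.3. No other library passed 975, the value of MC + Chemo 52. As a share of all murine counts the genes took 1.90% of MC + Chemo 43 and 1.27% of MC + Chemo 5, against 0.00716% to 0.0114% in CTRL. The libraries above the CTRL range by the widest margins thus lay in Chemo, MC and MC + Chemo, and each of these groups also had libraries within or close to that range.

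The genes were high in the same tumors. The highest library was MC + Chemo 43 for 26 genes, MC 41 for 9 and MC + Chemo 5 for 3. For 32 of the 38, among them all 14 fast genes and all 18 genes of both fibre types, the 4 highest libraries were MC + Chemo 43, MC 41, MC + Chemo 5 and MC 48. None of the 6 slow genes had those 4 on top. MC 41, MC 48 and MC + Chemo 43 exceeded every CTRL library for all 38 genes, MC + Chemo 5 for 37, MC + Chemo 47 for 36, Chemo 30 for 34 and Lean 54 for 26. MC + Chemo 52 did so for 20, and the others for 4 to 14. The matching shares over all murine genes were not computed, so these counts describe the members only.

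**Figure D1:**
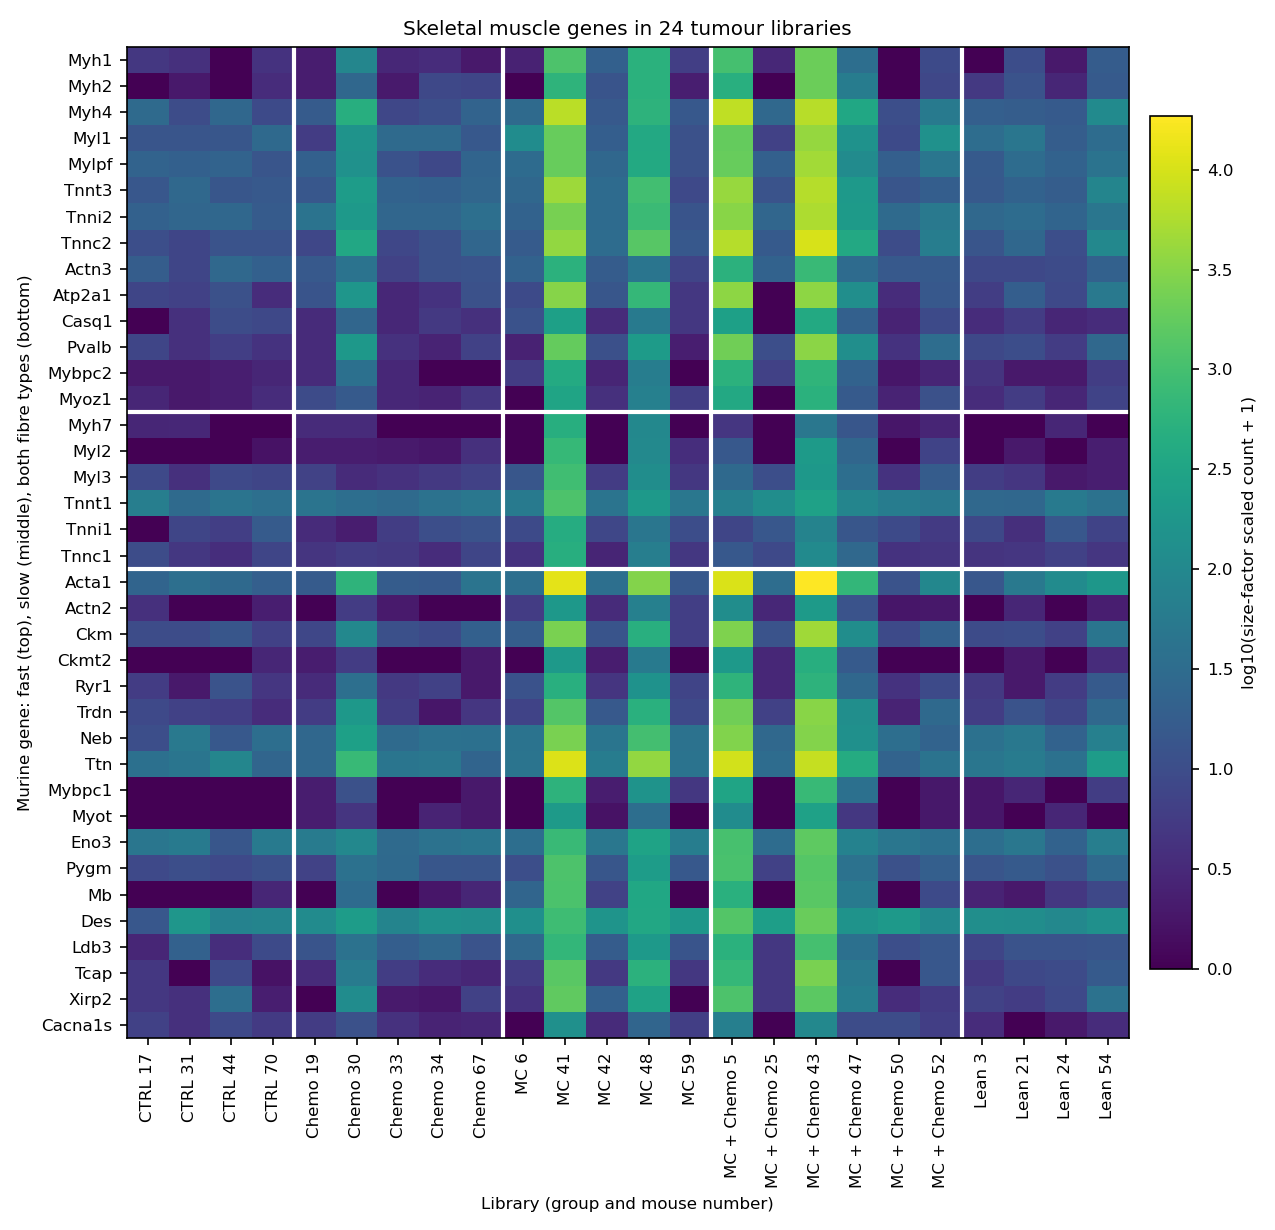
Level of the 38 murine muscle genes (rows, grouped from top to bottom as fast, slow and both fibre types) in the 24 libraries (columns, separated by group), as log10 of the size-factor scaled count plus 1. MC 41, MC 48, MC + Chemo 5 and MC + Chemo 43 are bright in nearly every row, but MC + Chemo 5 is dark in the slow rows.

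Group medians and means differed in how they weighed these tumors. CTRL had a median sum of 491. Chemo and Lean were near it with medians of 527 and 616, MC had 756, and the combination had 2525. Over the CTRL median, those of Chemo, MC, MC + Chemo and Lean were 1.07, 1.54, 5.14 and 1.25 times as high. The corresponding ratios of means were 2.78, 38.0, 60.3 and 1.64. Means and medians thus differed most in MC and MC + Chemo, the groups with the highest tumors. The MC median ranged from 741, without MC 41 or MC 48, to 9839 with 1 MC library left out, and the MC + Chemo median ranged from 975 to 4075 with 1 of its 6 libraries left out. With MC + Chemo 5 placed in MC, as its group field has it, the MC median was 9839 and the MC + Chemo median 975. The order of these 2 groups thus depended on the label of that library.

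**Figure D2:**
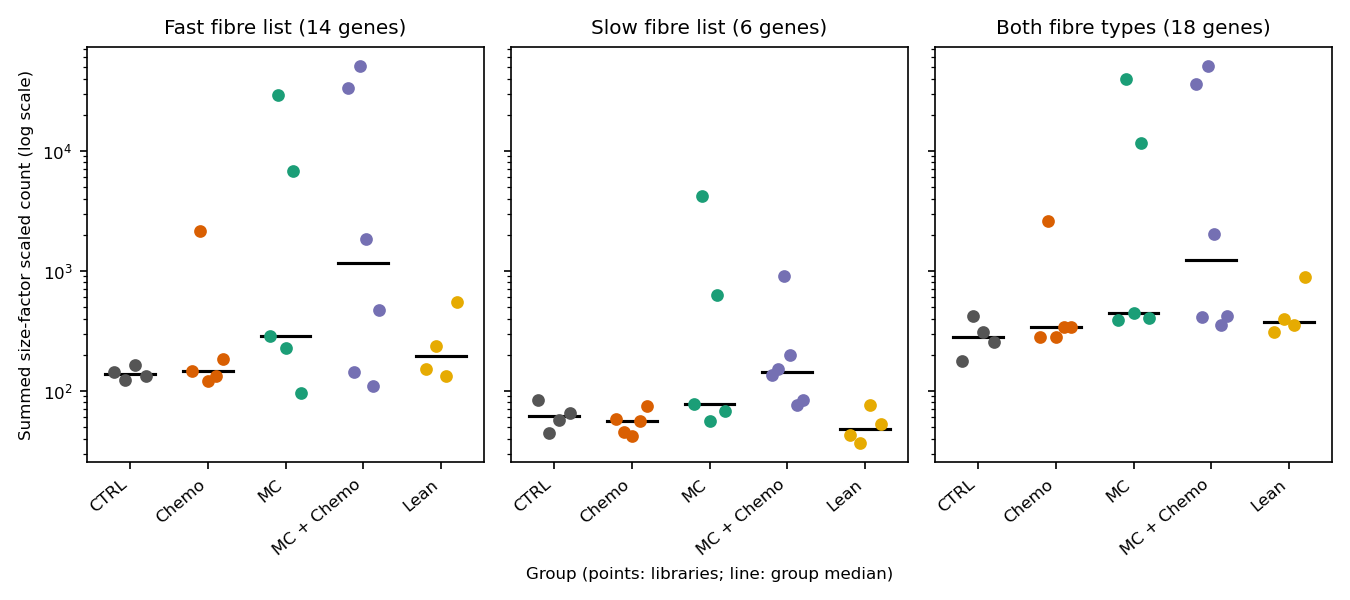
Summed size-factor scaled counts (log axis) of the fast, slow and both-type genes in each library (points) by group, with the group median as a line. The 2 highest points in the MC and MC + Chemo columns lie far above the group's other libraries for the fast and both-type genes, and only MC 41 does so to that extent for the slow genes.

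Myosin heavy chains, the motors of the thick filament, were mostly Myh4, the type 2B motor, in every muscle-rich tumor but MC 48. In the lists of values that follow, libraries run in order of mouse number: CTRL 17, 31, 44 and 70; Chemo 19, 30, 33, 34 and 67; MC 6, 41, 42, 48 and 59; MC + Chemo 5, 25, 43, 47, 50 and 52; Lean 3, 21, 24 and 54. Myh4 measured 28.8, 8.69, 25.6 and 8.17 scaled counts in CTRL and 15.6, 479, 7.06, 9.76 and 21.9 in Chemo. The MC values were 28.6, 6599, 14.3, 582 and 14.2, those of MC + Chemo were 7286, 27.0, 6539.9, 351, 9.71 and 54.6, and those of Lean were 18.5, 16.9, 15.3 and 108. Myh4, the motor of the fastest fibres, was thus highest in MC + Chemo 5, MC 41 and MC + Chemo 43, whereas MC 48, with 582, stood nearer to Chemo 30 and MC + Chemo 47. Scaled counts of Myh1 were 3.84, 2.90, 0 and 3.14 in CTRL and 1.20, 88.4, 2.02, 2.44 and 0.950 in Chemo. They were 1.59, 1211, 19.1, 523 and 5.18 in MC, 1038, 1.93, 2016, 33.4, 0 and 7.92 in the MC + Chemo group and 0, 9.36, 0.958 and 16.3 in Lean. Type 2X Myh1 was under 4 in all CTRL libraries and reached 523 in MC 48. For Myh2, the CTRL libraries held 0, 0.966, 0 and 2.51 scaled counts and the Chemo libraries 1.20, 25.6, 1.01, 7.32 and 6.65. The MC libraries held 0, 589, 11.9, 533 and 1.29, the MC + Chemo libraries 483, 0, 2051, 61.7, 0 and 7.04 and the Lean libraries 4.19, 11.2, 1.92 and 15. Type 2A Myh2 was highest in MC + Chemo 43, and MC 48 held 0.905 of the MC 41 level although its Myh4 was 0.0882 of that level.

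The Myh7 level was 1.92, 1.93, 0 and 0 scaled counts in CTRL, and 2.40, 2.33, 0, 0 and 0 in Chemo. MC had 0, 465, 0, 97.3 and 0, MC + Chemo had 3.81, 0, 48.2, 12.9, 0.809 and 1.76, and Lean had 0, 0, 1.92 and 0. The slow motor Myh7 had no read in 12 of the 24 libraries and was led by MC 41, then MC 48 and MC + Chemo 43. MC + Chemo 5, as rich in Myh4 as MC 41, had 5 Myh7 reads against 513. Each of the 4 genes overlapped between all pairs of groups compared.

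Taking the 4 motors as parts of their sum, 7 libraries had the 100 counts set as a minimum, and their mixtures differed. Myh4 was 82.7% of the sum in MC + Chemo 5, followed by Chemo 30 with 80.5%, Lean 54 with 77.5%, MC + Chemo 47 with 76.5% and MC 41 with 74.5%. It was 61.4% in MC + Chemo 43 and only 33.5% in MC 48. The 95% Wilson interval for MC 48, 31.5% to 35.6%, lay below that of every other library. In MC 48 the 3 fast motors were nearly even, with Myh1 at 30.2% and Myh2 at 30.7%. Slow Myh7 was 5.61% of the sum in MC 48, 5.25% in MC 41 and 2.80% in MC + Chemo 47. It was 0.452% in MC + Chemo 43, 0.391% in Chemo 30 and 0.0433% in MC + Chemo 5, with an interval of 0.0185% to 0.101%. Lean 54 had 0 Myh7 reads of 111, for which the interval reached 3.35%. These intervals cover counting error only. They may be too narrow even for that, since reads without molecular identifiers are not independent molecules. QuantSeq reads come from the 3′ end of a transcript, so these shares needed no correction for gene length.

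**Figure D3:**
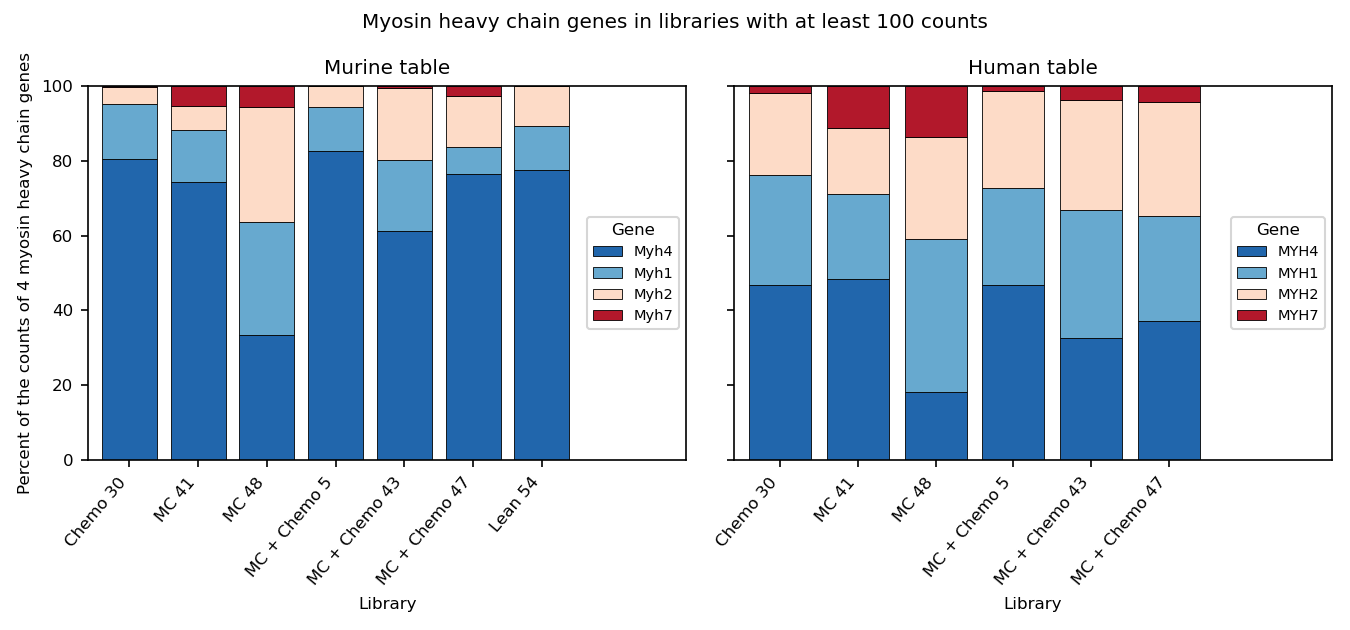
Stacked bars of 4 myosin heavy chain genes as a percent of their summed counts, in the murine table (left) and, for the genes of the same name, in the human table (right), for libraries with at least 100 such counts. In the murine panel MC 48 has the lowest Myh4 share, and Myh7 is visible in MC 41, MC 48 and MC + Chemo 47.

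The light chains, which brace the lever arm of myosin, also separated MC 41 and MC 48 from MC + Chemo 5. Mylpf measured 22.1, 19.3, 21.8 and 12.6 scaled counts in CTRL and 19.2, 142, 11.1, 7.32 and 22.8 in Chemo. The MC values were 30.2, 1854, 25.6, 386 and 10.4, those of MC + Chemo were 1875, 19.3, 4648, 116, 18.6 and 45.8, and those of Lean were 15.1, 31.8, 21.1 and 41.3. Mylpf, the fast regulatory light chain, differed little between MC 41 and MC + Chemo 5. Scaled counts of Myl2 were 0, 0, 0 and 0.628 in CTRL and 1.20, 1.16, 1.01, 0.813 and 2.85 in Chemo. They were 0, 711, 0, 102 and 2.59 in MC, 13.7, 0, 208, 24.4, 0 and 6.16 in the MC + Chemo group and 0, 0.936, 0 and 1.25 in Lean. Its slow counterpart Myl2 was at or under 3 scaled counts in every CTRL, Chemo and Lean library and led in MC 41. Of Mylpf plus Myl2 counts, Myl2 made 27.7% (95% Wilson interval 26.1 to 29.4) in MC 41 and 21% (95% Wilson interval 17.8 to 24.5) in MC 48. The share was 17.4% in MC + Chemo 47, 4.28% in MC + Chemo 43 and 0.727% (95% Wilson interval 0.460 to 1.15) in MC + Chemo 5. The intervals of MC 41 and MC + Chemo 5 were far apart. All 5 Chemo libraries exceeded all CTRL libraries for Myl2, but at 1 to 3 reads each, and 0.666% of all murine genes did the same.

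For Myl1, the CTRL libraries held 12.5, 12.6, 12.8 and 28.3 scaled counts and the Chemo libraries 4.80, 157, 29.2, 29.3 and 14.3. The MC libraries held 117, 1918, 17.9, 371 and 10.4, the MC + Chemo libraries 1834, 5.79, 3952, 148, 8.09 and 144 and the Lean libraries 32.7, 45.9, 17.2 and 31.3. Myl1, the fast essential light chain, was highest in MC + Chemo 43, and unlike the other fast genes it stood at 117 in MC 6 and 144 in MC + Chemo 52. In MC + Chemo 52 it was 1.51 times Acta1 by counts, against 0.123 to 0.261 times in MC 41, MC 48, Chemo 30 and MC + Chemo 5, 43 and 47. The Myl3 level was 7.68, 2.90, 7.69 and 6.91 scaled counts in CTRL, and 6.00, 2.33, 3.03, 4.07 and 5.70 in Chemo. MC had 12.7, 924, 4.77, 125 and 3.88, MC + Chemo had 28.2, 9.66, 186, 33.4, 3.24 and 16.7, and Lean had 5.03, 3.75, 0.958 and 1.25. Myl3, the slow essential light chain shared with the heart ventricle, made 32.5% of Myl1 plus Myl3 in MC 41 and 25.2% in MC 48, and 1.52% in MC + Chemo 5.

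Troponin, the calcium switch of the thin filament, has T, I and C subunits, each with a fast and a slow gene. Tnnt3 measured 13.4, 27.0, 12.8 and 14.5 scaled counts in CTRL and 13.2, 228, 21.2, 19.5 and 24.7 in Chemo. The MC values were 25.4, 4355, 29.8, 928 and 7.77, those of MC + Chemo were 4105, 11.6, 6249, 199, 12.1 and 17.6, and those of Lean were 14.3, 20.6, 17.2 and 87.5. Fast Tnnt3, which ties the complex to tropomyosin, spanned 7.77 to 6249. Scaled counts of Tnnt1 were 66.3, 29.0, 42.3 and 35.2 in CTRL and 43.2, 33.7, 29.2, 39.0 and 47.5 in Chemo. They were 54, 1192, 42.3, 195 and 47.9 in MC, 67.9, 122, 277, 87.4, 60.7 and 51.1 in the MC + Chemo group and 26.8, 25.3, 54.6 and 40 in Lean. Slow Tnnt1 stood apart from the other slow genes, with 25.3 scaled counts or more in every library, also in tumors in which Myh7 and Myl2 were at 0. Above that level it was highest in MC 41, MC + Chemo 43 and MC 48. Human TNNT1 had more reads than murine Tnnt1 in each CTRL library, with 679, 277, 495 and 366 against 69, 30, 33 and 56. In MC 41 the order was the reverse, with 566 human and 1314 murine reads. Whether human reads were counted under murine Tnnt1 was not tested. All 6 MC + Chemo libraries exceeded all 5 Chemo libraries for Tnnt1, as 0.312% of all murine genes did.

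For Tnni2, the CTRL libraries held 20.2, 25.1, 25.6 and 15.7 scaled counts and the Chemo libraries 42, 199, 24.2, 24.4 and 35.2. The MC libraries held 20.6, 2476, 30.4, 807 and 11.7, the MC + Chemo libraries 3241, 25.1, 5545, 212, 28.3 and 51.9 and the Lean libraries 26.8, 30.9, 23.0 and 46.3. Tnni2, the fast inhibitory subunit, was over 10 scaled counts in every library and highest in MC + Chemo 43. The Tnni1 level was 0, 6.76, 5.13 and 15.7 scaled counts in CTRL, and 2.40, 1.16, 5.04, 9.76 and 11.4 in Chemo. MC had 7.94, 433, 7.15, 45.6 and 9.06, MC + Chemo had 6.86, 13.5, 81.2, 12.9, 8.09 and 4.40, and Lean had 7.55, 2.81, 13.4 and 6.25. Slow Tnni1 stood at 6.86 in MC + Chemo 5, within the CTRL range, beside 433 in MC 41. Tnni1 was 14.9% of the pair's counts in MC 41 and 0.211% in MC + Chemo 5.

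Tnnc2 measured 9.60, 6.76, 11.5 and 11.3 scaled counts in CTRL and 7.20, 367, 7.06, 10.6 and 24.7 in Chemo. The MC values were 15.9, 3812, 31, 1461 and 14.2, those of MC + Chemo were 6262, 15.4, 10381, 374, 8.90 and 63.4, and those of Lean were 12.6, 25.3, 9.58 and 96.3. Tnnc2, the fast calcium-binding subunit, reached the highest value of any fast gene, and all 5 MC libraries lay above all 4 CTRL libraries, as 1.15% of murine genes did. Scaled counts of Tnnc1 were 8.64, 3.86, 2.56 and 6.91 in CTRL and 3.60, 4.65, 4.03, 2.44 and 6.65 in Chemo. They were 3.17, 482, 1.79, 66.3 and 3.88 in MC, 13.7, 7.72, 107, 27.0, 3.24 and 3.52 in the MC + Chemo group and 3.36, 3.75, 5.75 and 3.75 in Lean. Slow Tnnc1, which the heart also uses, was 11.2% of the pair in MC 41 and 4.34% in MC 48. MC + Chemo 47, 43 and 5 had shares of 6.73%, 1.02% and 0.219%. Over all 6 fast and slow partners, the slow share in MC + Chemo 5 ran from 0.0523% to 1.63%, and in MC 41 from 6.59% to 32.5%, with no overlap.

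Myosin-binding protein C lies along the thick filament and has a fast gene, Mybpc2, and a gene used by slow and some fast fibres, Mybpc1. For Mybpc2, the CTRL libraries held 0.960, 0.966, 1.28 and 1.89 scaled counts and the Chemo libraries 2.40, 36.1, 2.02, 0 and 0. The MC libraries held 4.76, 402, 1.79, 63.7 and 0, the MC + Chemo libraries 561, 5.79, 625, 20.6, 0.809 and 1.76 and the Lean libraries 3.36, 0.936, 0.958 and 5.00. Mybpc2 had the same 4 highest libraries as the other fast genes. The Mybpc1 level was 0, 0, 0 and 0 scaled counts in CTRL, and 1.20, 10.5, 0, 0 and 0.950 in Chemo. MC had 0, 570.5, 1.19, 158 and 3.88, MC + Chemo had 308, 0, 746, 37.3, 0 and 0.880, and Lean had 0.839, 1.87, 0 and 5.00. Mybpc1 was at 0 in 10 libraries, all 4 CTRL libraries among them. Unlike the 6 slow genes it was highest in MC + Chemo 43, and in MC + Chemo 5 it kept 35.5% of the counts of both genes, against 58.7% in MC 41 and 71.2% in MC 48.

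Actin and creatine kinase serve both fibre types. Acta1 measured 23.0, 34.8, 28.2 and 18.2 scaled counts in CTRL and 15.6, 601, 16.1, 15.5 and 42.8 in Chemo. The MC values were 34.9, 12262, 34.6, 3022 and 14.2, those of MC + Chemo were 10511, 32.8, 18509, 655, 11.3 and 95.1, and those of Lean were 13.4, 52.4, 114 and 181. Acta1, the actin of the skeletal thin filament, took 18.1% of all member counts in MC + Chemo 43 and 12.5% in Chemo 30. Scaled counts of Ckm were 8.64, 8.69, 12.8 and 5.66 in CTRL and 7.20, 95.4, 10.1, 8.13 and 19 in Chemo. They were 17.5, 2560.3, 11.9, 498 and 5.18 in MC, 2804, 11.6, 4519.8, 121, 8.09 and 19.4 in the MC + Chemo group and 8.39, 9.36, 5.75 and 43.8 in Lean. Ckm, the muscle creatine kinase that refills ATP at the myofibril, had a ratio to Acta1 by counts of 0.159 in Chemo 30 and 0.267 in MC + Chemo 5. Both were highest in MC + Chemo 43, MC 41 and MC + Chemo 5.

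Fast fibres clear calcium quickly by means of parvalbumin, a soluble buffer, and the pump SERCA1. For Pvalb, the CTRL libraries held 6.72, 2.90, 5.13 and 3.14 scaled counts and the Chemo libraries 2.40, 187, 3.03, 1.63 and 5.70. The MC libraries held 1.59, 1791, 10.1, 217 and 1.29, the MC + Chemo libraries 2234, 9.66, 3375, 126, 3.24 and 32.6 and the Lean libraries 7.55, 9.36, 4.79 and 26.3. Pvalb was 0.121 of the MC 41 level in MC 48. The Atp2a1 level was 6.72, 5.79, 10.3 and 2.51 scaled counts in CTRL, and 12.0, 174, 2.02, 3.25 and 10.5 in Chemo. MC had 7.94, 3101, 13.1, 705 and 3.88, MC + Chemo had 3436, 0, 3425, 126, 2.43 and 14.1, and Lean had 5.03, 17.8, 7.66 and 52.5. Atp2a1, which codes for SERCA1, was close to equal in MC + Chemo 5, MC + Chemo 43 and MC 41. The cardiac and slow pump gene Atp2a2, which many cells use, showed no such spread, at 1117 to 2418 over the 24 libraries.

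The remaining members are given by their group medians, in the order CTRL, Chemo, MC, MC + Chemo and Lean, with the highest library. Among proteins that set the length of the sarcomere, Ttn, the titin spring, had medians of 40.5, 45.4, 60.2, 233 and 52.6 and peaked at 11091 in MC 41. Neb, the ruler of the thin filament, had medians of 23.7, 36.1, 44.1, 85.1 and 43.7 and was at 2978 in MC + Chemo 43 and 2894 in MC + Chemo 5. Ttn and Neb were among the members with reads in every library. At the Z-disc, where thin filaments are anchored, Actn2 had medians of 0.628, 0, 5.18, 6.75 and 0.625 with 212 in MC + Chemo 43. Its fast-fibre relative Actn3 had medians of 18.4, 11.4, 20.6, 25.4 and 8.09 and ran to 786 in the same library. In MC 48 Actn3 was 43.9, or 0.0783 of MC 41, close to the ratio of Myh4.

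Myot, a Z-disc protein with an immunoglobulin fold, had medians of 0, 1.20, 0.596, 2.37 and 0.419, reached 278 and had no read in 11 libraries. Myoz1, the fast calcineurin-binding calsarcin, had medians of 1.60, 3.80, 5.18, 13.0 and 3.60 and reached 537. Ldb3, which binds alpha-actinin, had medians of 5.37, 18.2, 27.0, 25.2 and 11.4 and reached 1038, both in MC + Chemo 43. Z-disc genes thus had low group medians and the same high libraries. Tcap, which caps titin, had medians of 2.23, 2.44, 4.76, 32.3 and 8.06 and reached 2588 in MC + Chemo 43. Xirp2, an actin-binding protein of the Z-disc and muscle ends, had medians of 3.37, 1.01, 19.1, 34.3 and 6.77 and was led by MC 41 with 1681. Des, the intermediate filament desmin, is shared with smooth muscle and pericytes, and it had medians of 79.9, 129, 180.0, 222 and 125, reached 1925 and had reads in every library.

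The triad couples the electrical signal at the membrane to calcium release. Cacna1s, its voltage sensor, had medians of 5.08, 3.03, 5.18, 8.95 and 1.73 and was led by MC 41 with 139.7. Ryr1, the release channel, had medians of 4.29, 4.03, 11.1, 16.8 and 4.49 and was led by MC + Chemo 5 with 593. Trdn, triadin, which holds the channel to its calcium store, had medians of 5.46, 4.80, 14.3, 76.6 and 8.97 and was led by MC + Chemo 43 with 3257. The leading library thus differed among these 3 genes. Casq1, the fast calcium-storing calsequestrin, had medians of 5.22, 2.85, 11.1, 13.6 and 2.51 and reached 387 in MC + Chemo 43. All 4 Lean libraries lay below all 4 CTRL libraries for Cacna1s, with at most 3 reads each, as 1.57% of murine genes did.

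Among genes of energy supply, Ckmt2, the mitochondrial creatine kinase, had medians of 0, 0.950, 1.19, 8.68 and 0.468 and reached 472 in MC + Chemo 43. Mb, the oxygen-storing myoglobin of oxidative fibres, had medians of 0, 0.813, 23.8, 30.9 and 2.75, with 1481 in MC + Chemo 43, 1127 in MC 41 and 505 in MC + Chemo 5. Eno3, the muscle enolase, had medians of 49.8, 44.7, 63.4, 61.0 and 41.1, reached 1613 in MC + Chemo 43 and had reads in every library. Oxidative Mb was thus the member of both fibre types with the lowest ratio of MC + Chemo 5 to MC 41, 0.448. Pygm, the muscle glycogen phosphorylase, had medians of 8.67, 13.0, 14.2, 29.2 and 13.8 and reached 1361 in MC + Chemo 43. Its 4 Lean libraries, at 12.6, 15, 10.5 and 27.5, all lay above the CTRL libraries, at 7.68, 9.66, 7.69 and 10.1. Of all murine genes 1.43% did so.

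Fast and slow genes were then set against each other library by library. The 14 fast genes summed to 50516 and 33551 in MC + Chemo 43 and 5, and to 29234 and 6747 in MC 41 and 48. The 6 slow genes summed to 908, 134, 4206 and 631 in the same libraries. The order of the tumors was thus not the same for the 2 lists, since MC 41 led for slow genes and MC + Chemo 5 was below MC 48 and MC + Chemo 47. MC + Chemo 5 was also below MC + Chemo 25, which held 153, but Tnnt1 made 122 of that sum, against 67.9 in MC + Chemo 5. Of the other slow genes, only Tnni1 was higher in MC + Chemo 25 than in MC + Chemo 5. As a share of fast plus slow counts, fast genes made 99.6% in MC + Chemo 5 (95% Wilson interval 99.5 to 99.7), 98.2% in MC + Chemo 43 (98.1 to 98.3) and 97.9% in Chemo 30 (97.2 to 98.5). They made 91.4% in MC 48 (90.8 to 92.0), 90.2% in MC + Chemo 47 (88.7 to 91.6) and 87.4% in MC 41 (87.1 to 87.8).

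**Figure D4:**
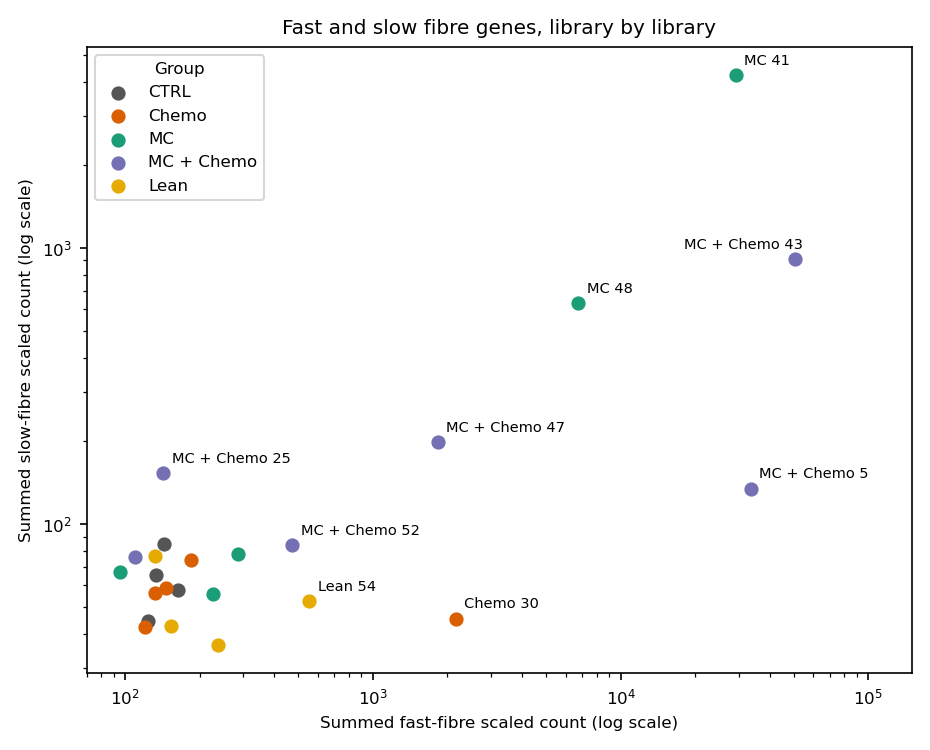
Summed scaled counts of the 14 fast-fibre genes (horizontal log axis) and the 6 slow-fibre genes (vertical log axis) in each of the 24 libraries, coloured by group. MC + Chemo 5 and MC 41 have similar fast sums but slow sums of 134 and 4206, and Chemo 30 has a raised fast sum with a slow sum of 45.4, within the CTRL range.

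Gene by gene, the ratio of MC + Chemo 5 to MC 41 ran from 0.820 (Myh2) to 1.64 (Tnnc2) for the fast genes and from 0.00820 (Myh7) to 0.0570 (Tnnt1) for the slow genes, so the 2 lists did not overlap. For MC + Chemo 43 over MC 41 it ran from 0.991 (Myh4) to 3.49 (Myh2) for the fast and from 0.104 (Myh7) to 0.293 (Myl2) for the slow genes, again without overlap. MC 48 over MC 41 behaved otherwise, with 0.0783 (Actn3) to 0.905 (Myh2) for fast and 0.105 (Tnni1) to 0.209 (Myh7) for slow genes. In MC 48 the fast genes themselves were uneven, as Myh2, the 2A motor, was at 0.905 of MC 41 while Actn3, Myh4 and Pvalb were at 0.0783, 0.0882 and 0.121. Among the less muscle-rich tumors, MC + Chemo 47 over Chemo 30 gave 0.378 (Myh1) to 2.41 (Myh2) for the fast genes, while the slow genes summed to 198 and 45.4. Myl2 had 19 reads in MC + Chemo 47 and 1 in Chemo 30.

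Where muscle RNA was scarce the fast share was lower, and Tnnt1 made most of the slow counts in CTRL. It was 63.0%, 73.6%, 74.0% and 67.1% in CTRL and was 48.4% in MC + Chemo 25. The CTRL and Chemo medians were 70.3% and 71.4%, those of MC and Lean were 80.2% and 82.4%, and the combination had 87.6%. Without Tnnt1 the medians became 88.8% for CTRL, 90.2% for Chemo, 92.3% for MC, 93.9% for MC + Chemo and 93.0% for Lean, against a range of 81.5% to 91.4% within CTRL alone. The gene Tnnt1 thus lowered the fast share in tumors with little muscle RNA, and the group medians without it lay close together. Whether the Tnnt1 reads of those tumors came from host muscle was not tested.

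Across groups, the log2 difference of each gene was estimated with edgeR's quasi-likelihood test over all 15011 murine genes kept after removal of those with few counts (15029 with Lean), all 38 members among them. The members were listed with these contrasts known, so their counts are a description and support nothing, and 4 of the comparisons share the CTRL libraries. At an adjusted p (Benjamini-Hochberg, all genes) under 0.05, edgeR called 0 members in each of the 6 comparisons, beside 0.0% of all genes in each. In MC vs CTRL the members' median log2 fold change was 5.70, beside 0.00 over all genes tested, all 38 were higher, and all 38 had an unadjusted p under 0.05, as 8.73% of all genes did in that direction. In MC + Chemo vs CTRL the median was 6.06, beside 0.01 over all genes, and 34 members had an unadjusted p under 0.05 (background 5.1%). In Chemo vs CTRL the median was 1.54, 30 genes were higher and 8 lower, and 0 had an unadjusted p under 0.05 (background 4.53%). Lean vs CTRL gave a median of 0.84, with 29 higher and 9 lower and 0 under 0.05 (background 3.11%). The Chemo and Lean medians were carried by 1 library each, and were -0.06 without Chemo 30 and 0.30 without Lean 54. The MC median was 3.42 without MC 41. Without the column-cleaned libraries, 530 of 15091 murine genes were higher in MC vs CTRL at an unadjusted edgeR p under 0.05. With them the count was 1310 of 15011. Mybpc1 and Myot had no read in any CTRL library, and with both set at their lower bound against 3 counts over the group the Chemo, MC, MC + Chemo and Lean medians were 1.47, 5.70, 6.06 and 0.76.

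The spread behind these values was large. Acta1 differed by a log2 fold change of 6.87 ± 2.39 (SE) in MC vs CTRL, with an edgeR adjusted p of 0.279, and by 7.58 ± 2.45 (SE) in MC + Chemo vs CTRL, with an adjusted p of 0.244. Myh4 differed by 6.36 ± 2.32 (SE) and 7.10 ± 2.37 (SE), and slow Myl3 by 5.05 ± 1.43 (SE) and 2.87 ± 1.35 (SE). All 6 comparisons considered, the libraries of the first group lay wholly above those of the second for 1 member each in Chemo vs CTRL, MC vs CTRL, Lean vs CTRL and MC + Chemo vs Chemo, as given above, and for 0 in MC + Chemo vs CTRL (background 0.894%) and MC + Chemo vs MC (background 0.378%). The lowest edgeR adjusted p of any member was 0.242 in MC vs CTRL and 0.225 in MC + Chemo vs CTRL. DESeq2, the tool of the authors, gave other counts on the same data. It called 24 members higher in MC vs CTRL (background 1.64%) and 26 in MC + Chemo vs CTRL (background 0.487%), and 0 in Chemo vs CTRL (background 0.0841%) and Lean vs CTRL (background 0.00601%). Those counts moved with single libraries, from 0 without CTRL 17 or MC 41 to 31 without MC 42 for MC, and from 8 without MC + Chemo 43 to 30 without MC + Chemo 25 for the combination.

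In the comparison of MC + Chemo with MC, fitted fold changes and group medians of the slow genes ran in opposite directions. By the fit, fast genes had log2 fold changes of 0.56 (Myh1) to 1.43 (Tnnc2) and slow genes of -3.26 (Myh7) to -1.47 (Tnnt1), so the lists did not overlap, while the median over all genes was -0.04. No member was called by edgeR (background 0.0%) or DESeq2 (background 0.0785%), and 4 slow genes were lower at an unadjusted edgeR p under 0.05, as 6.16% of all genes were. Slow Myh7 differed by -3.26 ± 1.24 (SE) and Tnnt1 by -1.47 ± 0.67 (SE). Group medians were higher in MC + Chemo than in MC for all 6 slow genes, with 9.95 against 2.59 for Myl2 and 10.7 against 3.88 for Tnnc1, and the medians of the slow sum were 143 and 77.8. The fitted values followed a few tumors, since MC 41 held 4206 scaled counts of slow genes and the next library, MC + Chemo 43, 908. The median over all members in this comparison was 0.62, was -0.22 without MC + Chemo 43, and was -0.19 with MC + Chemo 5 placed in MC. In MC + Chemo vs Chemo, all 38 members had higher values, with a median of 4.57, 35 had an unadjusted p under 0.05 (background 4.4%), and DESeq2 called 1, Ckm (background 0.024%).

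Genes of the same name in the human table, which should hold reads of the cancer cells, gave a second set of values for the same libraries. Of the 38 members, 33 had such a namesake there, and the other 5 (MYBPC2, TNNI1, DES, LDB3 and CACNA1S) were not analysed here. For 30 of the 33 the highest human count was in MC + Chemo 43, MC + Chemo 5 or MC 41, the 3 libraries richest in murine muscle RNA. Human MYH4 had 1705 reads in MC 41, 1631 in MC + Chemo 5 and 1375 in MC + Chemo 43, against 1 to 6 in CTRL. Human CKM had 1070, 674 and 478 in MC + Chemo 43, MC + Chemo 5 and MC 41, against 0 to 2 in CTRL. Of the 33, 25 were under 15 reads in every CTRL library. In all 24 libraries together, 31 namesakes had fewer human than murine reads, with a median human count of 23.6% of the murine count.

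The exceptions were genes with human reads in tumors that held little murine muscle RNA. TNNT1 had 277 to 679 reads in CTRL and peaked in CTRL 17, and MB and TNNC1 peaked in Chemo 67 with 220 and 16. MYH7 was the closest to even, with 714 human and 711 murine reads. In MC + Chemo 5, the tumor with 5 murine Myh7 reads, human MYH7 had 51, and in MC + Chemo 43 the 2 tables held 57 and 155. Human shares of the 4 motors also differed from murine shares, as MYH4 was 46.9% of the human sum in MC + Chemo 5 where Myh4 was 82.7% of the murine sum. MC 48 had the lowest MYH4 share in both tables, 18.3% and 33.5%. Reads of 50 bases from near-identical murine and human exons, or from neighbouring myosin genes, can be counted under either name, and their part in these shares was not tested.

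**Figure D5:**
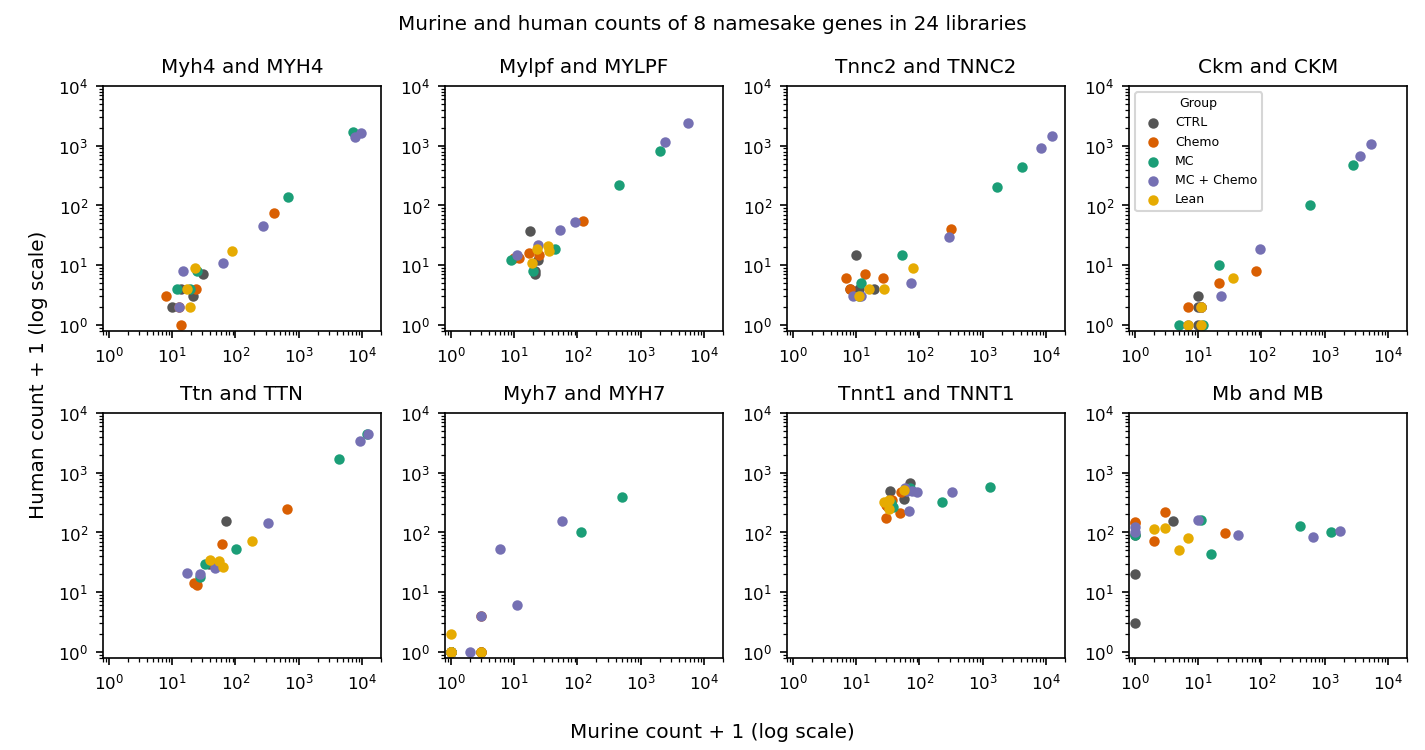
Human read count plus 1 (vertical log axis) against murine read count plus 1 (horizontal log axis) of 8 genes with the same name in both tables, in 24 libraries coloured by group. MYH4, MYLPF, TNNC2, CKM, TTN and MYH7 are highest in MC 41 or MC + Chemo 43, whereas TNNT1 is highest in CTRL 17 and MB in Chemo 67.

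Muscle genes outside the list showed the same tumors. Of 38 further genes of the sarcomere and triad, 37 were in the table, and all 37 were highest in MC + Chemo 43, MC 41 or MC + Chemo 5. The 4 highest libraries were those of the members for 27. Shares over all murine genes were not computed for these counts. Tpm1 and Tpm2, tropomyosins also used by smooth muscle and fibroblasts, and Fhl1 had the highest mean level of this list, and Tpm2 stood at 4044 in MC + Chemo 43 against 568 to 754 in CTRL. In edgeR, 32 of these passed the filter, with a median log2 fold change of 3.93 in MC vs CTRL and 4.53 in MC + Chemo vs CTRL, with 0 called and 24 and 25 at an unadjusted p under 0.05, beside 8.73% and 5.1% of all genes. DESeq2 called 1 and 4 of them, beside 1.64% and 0.487% of all genes. Of 9 other slow-fibre genes 8 were in the table, and the abundant Tpm3 and Atp2a2, which many cells express, were highest in MC + Chemo 25. Ankrd2, Csrp3, Myoz2 and Myom3, all under 6 scaled counts in CTRL, were 46.5, 49.6, 22.9 and 29.7 in MC + Chemo 5 and 133, 68.0, 141 and 97.0 in MC 41. Over the whole list, 3 genes were higher and 5 lower in the fit of MC + Chemo vs MC, with a median log2 fold change of -0.12, a range of -0.86 to 0.82 and 0 at an unadjusted p under 0.05, whereas the 6 slow members had a median of -2.09.

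Among 13 regulators and genes of immature fibres, 5 were in the table. Myf6, the regulator kept by mature fibres, was at 0 in all CTRL, Chemo and Lean libraries and reached 32.1 and 22.1 in MC + Chemo 43 and 5, and 7.26 in MC 41. The murine table held no gene with a sum under 72 reads. Myf6 could thus be listed only through MC and MC + Chemo libraries, so its pattern supports nothing. Embryonic Myh3 ranged from 2.88 to 18.1 and did not follow the muscle-rich libraries. Pax7, Myod1 and Myog were not analysed here. Heart markers were low throughout, with Tnnt2, Tnni3 and Myl4 summing to 19.2 to 64.7.

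Markers of other tissues moved with some of these libraries but not with all. Brown fat genes, led by Ucp1 and Cidea, summed to 47228 in MC 41 and 1174 in MC + Chemo 5, but to 479 in MC + Chemo 43 and 429.5 in MC 48, with CTRL at 113 to 387. MC 6 and MC + Chemo 52, with 10015 and 4069, were rich in brown fat RNA and had only 756 and 975 of muscle. Adipocyte markers, led by Fabp4, Car3 and Cfd, were highest in MC + Chemo 52 with 155892 and MC 41 with 117963, and were 17329 in MC + Chemo 43, against 609.8 to 11453 in CTRL. The energy list, which shares Cox8b and Ppargc1a with the brown fat list, split along these lines. Cox6a2, Pgam2 and Ampd1 were highest in MC + Chemo 43, whereas Gpd1, Cox8b, Fabp3 and Cox7a1 were highest in MC 41 and next in MC 6. The part of these tissues in the muscle values was not tested.

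Most other marker sums in the muscle-rich tumors lay within the range of the other libraries. Smooth muscle genes summed to 2424 in MC + Chemo 43 and 2666 in MC 41, against 2009 to 7378 in CTRL. Endothelial sums were 2272 and 4283 in the same 2 libraries, with CTRL at 568 to 4262. Fibroblast sums, led by Col1a2, ran from 51102 to 156677 over the 24 libraries, with the lowest values in MC + Chemo 52 and MC 41. Keratinocyte and macrophage sums ran from 1313 to 6976 and from 8123 to 20719. Haemoglobin genes of the erythroid list were highest in MC + Chemo 43 as well, with a list sum of 21831 against 694 to 2389.8 in CTRL, and stood at 3331 in MC 48. All 5 erythroid genes tested had higher group values than CTRL in every other group, DESeq2 called 5, 4 and 5 of them in Chemo, MC and MC + Chemo, beside 0.0841%, 1.64% and 0.487% of all genes. EdgeR called 0 with 5 at an unadjusted p under 0.05 in each, beside 4.53% of all genes in either direction in Chemo, and 8.73% and 5.1% higher in MC and MC + Chemo. The part of blood in the muscle values was not tested.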

How the data were processed

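RNA of 24 tumors, each from 1 mouse by its number in the labels, was sequenced as QuantSeq 3′ libraries with 50 base forward reads. The authors aligned and counted reads per Ensembl gene with BlueBee software and deposited raw counts for 16667 murine and 18880 human genes, each murine gene with a sum of at least 72. The authors also deposited a signal table, the same counts divided by DESeq2 size factors (DESeq2 1.22.2 and build GRCm38 per the submitters' processing notes), which supplied gene names and the scaled counts. Aligner and human build are not given in the sources used here.

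Levels are scaled counts. Shares are raw counts with 95% Wilson intervals. Groups were compared on raw counts with edgeR 4.0.16 (quasi-likelihood F test, TMM, filterByExpr, limma 3.58.1, R 4.3.3), with 20 libraries in the fit and 24 for Lean vs CTRL, and Benjamini-Hochberg adjustment over all genes tested. P-values measure the spread between these libraries, 1 per mouse. Spread between mice and spread from the piece of tumor taken cannot be told apart. The SE printed with a log2 fold change is its absolute value divided by the square root of the F statistic. DESeq2 1.42.0, other scaling, no filter, other libraries in the fit, MC + Chemo 5 placed in MC, and omission of single or column-cleaned libraries were alternatives. The edgeR script was tested on simulated data in which genes changed alike in every MC + Chemo library. That does not show how it behaves where a few libraries hold most counts, as for the members. No columns in the tables were without a sample.

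The members and lists were chosen with earlier results of these data known. Values in every library are given for fast and slow partners of a protein family and for Acta1, Ckm, Pvalb and Atp2a1, and group medians for the other members. Other lists are given by counts and sums, with up to 3 genes of highest mean level and markers at or near 0. Atp2a2, Ankrd2, Csrp3, Myoz2, Myom3, Cox6a2, Pgam2, Ampd1, Gpd1, Cox8b, Fabp3, Cox7a1, Myf6 and Myh3 were chosen after their values were seen. Sequences are not printed, as none were analysed here.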

Additional observations from a re-analysis of the deposited data

Results flagged for a closer look

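Some libraries lay far from the others of their group, judged by Dixon's 95% critical value on 4 sums, each on a log2 and on a linear scale, and on the fast share. In Chemo, library 30 stood apart on both scales, with 4795 scaled counts over the 38 genes, 2164 over the fast genes and 2585 over the genes of both fibre types. Its fast share of 97.9% also stood apart, while its slow sum of 45.4 did not. In MC, library 41 stood apart on the linear scale alone, with 72807 over all members, 29234 over the fast, 4206 over the slow and 39367 over the genes of both types. In MC + Chemo, library 43 stood apart on the linear scale for the slow genes, with 908. In Lean, library 54 stood apart on the linear scale, with 1490.3 over all members and 884 over the genes of both types. No CTRL library stood apart. Among 45 sets of libraries examined, chance alone sets apart about 1 in 20 where values are normally distributed. The linear sums were strongly skewed, so that rate need not hold for them. The measures also share genes and libraries.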

How the results depend on the processing

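The choice of test decided the counts of called members. EdgeR called 0 in all 6 comparisons and under every alternative run within edgeR, whereas DESeq2 called 24 in MC vs CTRL, 26 in MC + Chemo vs CTRL and 1 in MC + Chemo vs Chemo, and the cause was not tested. With 1 library left out in turn, which was chosen after seeing the data, DESeq2 counts ran from 0 to 31 for MC vs CTRL (0 without CTRL 17 or MC 41), from 8 to 30 for MC + Chemo vs CTRL (edgeR 0), from 0 to 19 for MC + Chemo vs Chemo (19 without Chemo 30), from 0 to 1 for Chemo vs CTRL and Lean vs CTRL, and stayed at 0 for MC + Chemo vs MC. Omitting single libraries moved the members' median log2 fold change between -0.062 (without Chemo 30) and 1.78 for Chemo vs CTRL and between 0.30 (without Lean 54) and 1.06 for Lean vs CTRL. For MC + Chemo vs MC it ran from -0.22 to 2.39, with a negative value without MC + Chemo 43, and it was -0.19 with MC + Chemo 5 placed in MC. The median fast share of CTRL was 61.9% with only the 6 fast genes that have a slow partner. Without Tnnt1, again chosen after seeing the data, it was 88.8% in CTRL and 90.2% in Chemo. No paired analysis was possible because the groups share no mouse numbers. At this depth slow genes with 0 to 3 reads per library cannot be ranked.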
